A study of Bos indicus with 6 samples.

Results

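The steroid hormone receptors and the progesterone membrane receptor components of the cow oviduct were followed in the isthmus, the oviduct segment next to the uterus. Members were the rows of the deposited table whose gene symbol was ESR1, ESR2, PGR, NR3C1, NR3C2, PGRMC1 or PGRMC2. Of these 7 symbols, 6 had a row among the 24616 genes of the table. The symbol NR3C1 had none, so the glucocorticoid receptor is not counted among the members. The data came from 6 multiparous Nelore cows (Bos indicus), 1 isthmus library per cow. All 6 cows received an intravaginal progesterone device of 1 g with 2 mg of estradiol benzoate on day -10, prostaglandin F2α around device removal, and a GnRH agonist to induce ovulation. In the 3 LF/LCL cows (larger follicle, larger corpus luteum) prostaglandin was also given at device insertion and the device was taken out 42 h ahead of the GnRH injection. In the 3 SF/SCL cows (smaller follicle, smaller corpus luteum) it was taken out 30 h ahead of GnRH, and all tissue was collected on day 4. The study took for sequencing the highest ranked LF/LCL animals and the lowest ranked SF/SCL animals by follicle, corpus luteum and hormone measures, so the groups stand for the ends of that ranking.

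Estradiol and progesterone act on the oviduct through nuclear receptors, which bind the hormone, leave a chaperone complex and regulate genes on chromatin. ESR1 and ESR2 encode the oestrogen receptors alpha and beta, PGR the nuclear progesterone receptor, and NR3C2 the mineralocorticoid receptor, which also binds glucocorticoids. PGRMC1 and PGRMC2 are not nuclear receptors. They are haem-binding membrane proteins of the MAPR family, associated with rapid progesterone responses and with steroid and cholesterol metabolism. In the oviduct, oestrogen is known to favour ciliation and secretion of the epithelium, and progesterone opposes these actions.

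Values are normalized counts, that is, reads per gene divided by a size factor for the library, and they are not corrected for transcript length. Levels are therefore compared between cows and not between genes. Each library held 23899117 to 34193164 counted reads (median 27155932). The library of SF/SCL cow 489215 stood apart. Its size factor was 0.751, against 0.923 to 1.32 in the other libraries. Its normalized counts summed to 33913700, against 25901100 to 26900100 in the others. It had the lowest value of the 6 libraries for 35.7% of the 15387 genes tested and the highest value for 36.7%. Results that rest on it are given with and without it. Smooth muscle, ciliated and secretory marker genes were all detected, and haemoglobin genes had at most 3.25 normalized counts in a library.

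PGRMC1 was the receptor gene with the clearest difference between the groups. It was higher in every SF/SCL cow than in every LF/LCL cow, 2.44-fold on average on the log2(value + 1) scale, with a 95% interval of 1.62 to 3.68. After Benjamini-Hochberg adjustment over all genes tested, limma called 0 of the 6 members, against 0% of the genes tested. At an unadjusted limma p under 0.05, 1 of the 6 members (PGRMC1) differed, against 8.66% of the genes tested. Of all genes tested 4.19% were higher and 4.48% lower in SF/SCL at that level. DESeq2, run on the recovered reads, called 1 of the 6 members at an adjusted p under 0.05, again PGRMC1, against 2.66% of genes. For 2 of the 6 members, PGRMC1 and PGR, every SF/SCL value was above every LF/LCL value, against 9.51% of the genes tested in that direction and 18.1% in either. All 6 members passed the filter on low and variable values. The median log2 fold change of the members was -0.01, and that of all genes tested was -0.02.

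**Figure D1:**
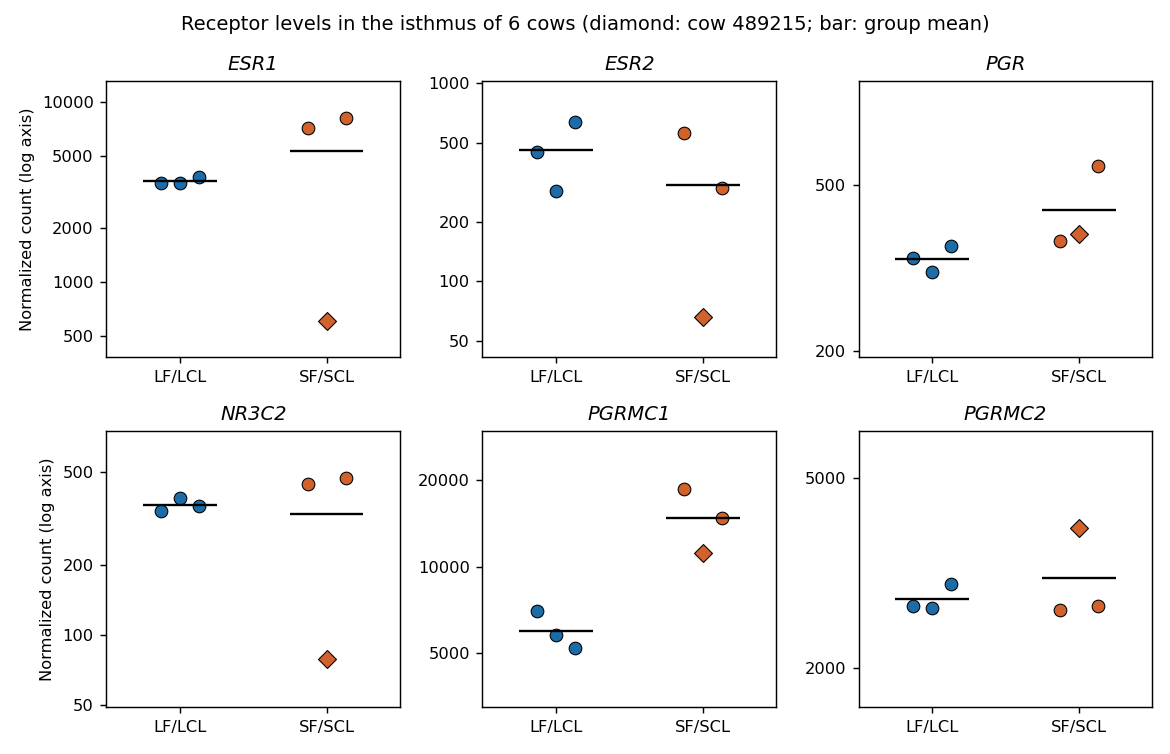
Normalized counts of the 6 receptor genes (log axis, a separate scale for each gene) in the 3 LF/LCL cows (blue) and the 3 SF/SCL cows (orange), with a bar at each group mean and a diamond for cow 489215. PGRMC1 and PGR lie higher in every SF/SCL cow, while the diamond lies far below all other points for ESR1, ESR2 and NR3C2.

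ESR1, the main oestrogen receptor of the reproductive tract, had 3571, 3572 and 3834 normalized counts in LF/LCL cows 617, 79 and 527. In SF/SCL cows 856, 97 and 489215 it had 7235, 8211 and 608. The LF/LCL cows were close together (3659 ± 151, SD, n = 3), with a coefficient of variation of 4.14%. The SF/SCL cows lay on both sides of them, 2 above and 1 below every LF/LCL cow (5351 ± 4136, SD, n = 3). The limma log2 fold change of SF/SCL over LF/LCL was -0.14 ± 0.97 (SE), with an adjusted p of 0.977 and an interval that ran from -2.47 to 2.18. An exact permutation test of the group means gave p = 1. With cow 489215 left out, the ESR1 difference was 1.08 ± 0.09, a 2.11-fold higher level in SF/SCL, with an adjusted p of 0.00247. The count models gave positive values with all 6 libraries, 0.53 in edgeR and 0.55 in DESeq2, with adjusted p of 0.919 and 0.915. The sign of the ESR1 difference thus turned when 1 library was left out, and it differed between limma and these 2 count models. With limma-voom on the recovered reads the difference was negative, -0.16. The cause was not tested.

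ESR2 had 449, 285 and 637 normalized counts in LF/LCL cows 617, 79 and 527, and 561, 294 and 66.6 in SF/SCL cows 856, 97 and 489215. The groups overlapped, and ESR2 varied more than ESR1 within LF/LCL, with a coefficient of variation of 38.5%. Its limma log2 fold change was -0.96 ± 0.78 (adjusted p = 0.832, interval -2.84 to 0.92). Without cow 489215 it was -0.10 ± 0.40 (adjusted p = 0.893, interval -1.05 to 0.86). Cows 617, 527 and 856 had the 3 highest values, and cows 79 and 97 lay next to each other although they belong to different groups.

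PGR, which mediates the nuclear actions of progesterone and is itself a known oestrogen target, had 334, 310 and 357 normalized counts in LF/LCL cows 617, 79 and 527. The SF/SCL values were 368, 554 and 382 in cows 856, 97 and 489215. All 3 SF/SCL cows were above all 3 LF/LCL cows, but the gap between cow 527 and cow 856 was small. This order rests on the size factor of cow 489215. Over library totals its PGR would lie below every LF/LCL cow. That cow had 287 of 25472906 reads, against 319 of 25652651, 330 of 28659214 and 406 of 29836083 in cows 617, 79 and 527. The levels were 333 ± 23.4 in LF/LCL and 435 ± 104 in SF/SCL (SD, n = 3). The PGR log2 fold change was 0.36 ± 0.25. The limma adjusted p was 0.785 and the interval ran from -0.24 to 0.96. The exact permutation p was 0.1, the smallest that 3 cows against 3 allow. In normalized counts, PGR was the only member for nuclear receptors whose value in cow 489215 lay within the range of the other 5 libraries. Its difference without that cow was 0.44 ± 0.20 (limma adjusted p = 0.187).

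NR3C2 had 342, 387 and 357 normalized counts in LF/LCL cows 617, 79 and 527, and 445, 471 and 78.6 in SF/SCL cows 856, 97 and 489215. As for ESR1, cows 856 and 97 lay above every LF/LCL cow and cow 489215 below every one. The limma log2 fold change was -0.50 ± 0.69 (adjusted p = 0.895, interval -2.17 to 1.17). Without cow 489215 it was 0.34 ± 0.14, and it did not pass the threshold (adjusted p = 0.136). This arrangement of the cows, picked out after the values were seen, was found for 2 of the 6 members, against 14% of the genes tested.

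The table holds a row with the symbol GR-A, which no file used here pairs with NR3C1 and which is therefore no member. It was chosen after its values were seen. GR-A had 766, 1003 and 1182 normalized counts in LF/LCL cows 617, 79 and 527 and 1679, 1702 and 168 in SF/SCL cows 856, 97 and 489215, the arrangement seen for ESR1 and NR3C2. Its limma log2 fold change was -0.31 ± 0.90 (adjusted p = 0.951), and 0.80 ± 0.18 without cow 489215 (adjusted p = 0.0305).

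PGRMC1 had 6986, 5780 and 5190 normalized counts in LF/LCL cows 617, 79 and 527 (5986 ± 916, SD, n = 3). It had 18585, 14707 and 11134 in SF/SCL cows 856, 97 and 489215 (14808 ± 3726, SD, n = 3). The lowest SF/SCL cow, 489215, was well above the highest LF/LCL cow, 617. The limma log2 fold change was 1.29 ± 0.25, with an unadjusted p of 0.00157 and an adjusted p of 0.367. By unadjusted p it was the 62nd of the 15387 genes tested. The exact permutation p was 0.1, the smallest possible. DESeq2 gave 1.31 with an adjusted p of 0.00118, and the edgeR quasi-likelihood test gave 1.28 with an adjusted p of 0.375. Without cow 489215 the limma value was 1.48 ± 0.16 with an adjusted p of 0.00359. In that fit 2 of the 6 members (ESR1 and PGRMC1) were called, against 18.2% of the genes tested, with 10.3% called higher and 7.92% lower in SF/SCL. At an unadjusted p under 0.05 it gave 3 of the 6 members (NR3C2 was the third), against 33.9% of genes. With 2 SF/SCL cows left, values were apart for 4 of the 6 members, against 52% of genes.

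PGRMC2, the paralogue of PGRMC1, had 2689, 2670 and 3002 normalized counts in LF/LCL cows 617, 79 and 527, and 2646, 2699 and 3929 in SF/SCL cows 856, 97 and 489215. Apart from cow 489215, the highest and lowest libraries differed by a factor of 1.13, the narrowest range of the 6 members. The limma log2 fold change was 0.13 ± 0.21 (adjusted p = 0.908). Its interval, -0.37 to 0.62, did not reach the PGRMC1 value of 1.29. Without cow 489215 it was -0.06 ± 0.09, with an interval of -0.28 to 0.16.

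**Figure D2:**
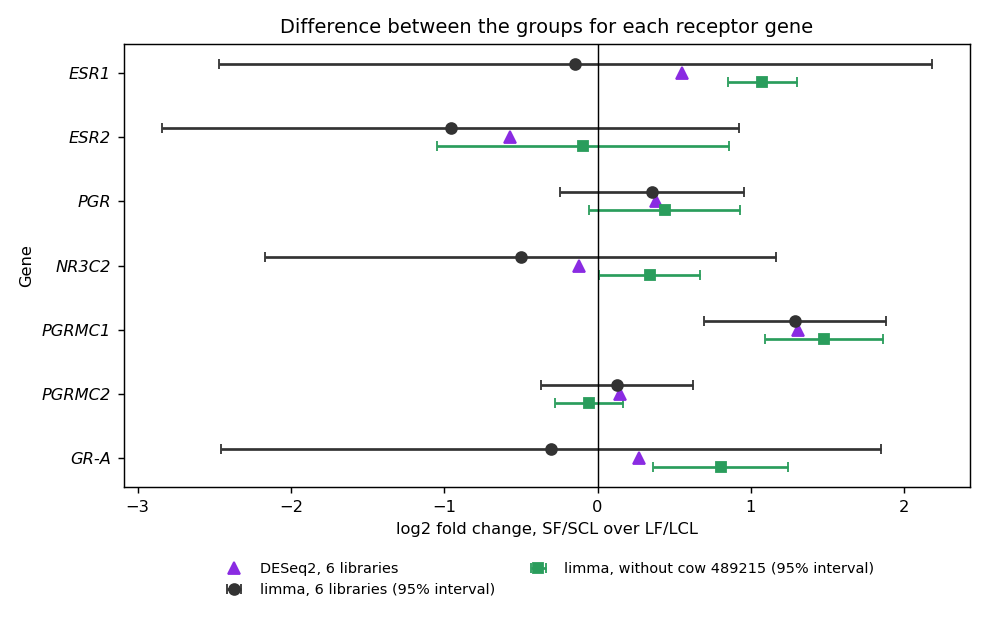
Log2 fold change of SF/SCL over LF/LCL for the 6 receptor genes and GR-A, from limma with all 6 libraries (circles) and without cow 489215 (squares), each with its 95% interval, and from DESeq2 with all 6 libraries (triangles). The interval of PGRMC1 lies above 0 in both fits, and those of ESR1, NR3C2 and GR-A do so without cow 489215 but not with it.

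In cow 489215 the value was the lowest of the 6 libraries for 3 of the 6 members and the highest for 1, PGRMC2. Over all genes tested these shares were 35.7% and 36.7%, so the members' counts are near those of genes in general. The median of the other 5 libraries was 6.30 times its value for ESR1, 6.75 times for ESR2 and 4.92 times for NR3C2. At least 5 times below that median, a bound chosen after the values were seen, lay ESR1 and ESR2 among the members and 7.07% of the genes tested. PGR was 1.07 times, PGRMC2 1.46 times and PGRMC1 1.59 times the median of the other 5. Such ratios depend on the size factor of this library, 0.751. Over library totals its PGR would be the lowest of the 6. Its PGRMC2 (2951 of 25472906 reads) would be close to that of cow 527 (3418 of 29836083). The low values in cow 489215 rest on 457 reads for ESR1, 50 for ESR2 and 59 for NR3C2, among 25472906 reads of the library, so they are not zero counts.

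Ratios of 2 receptors within a library do not depend on the size factor, and 3 such ratios were compared. The design also held NR3C1 over NR3C2, which could not be formed. Since counts are not per length, only differences between cows in a ratio are read. ESR1 over ESR2 was 7.95, 12.5 and 6.02 in LF/LCL cows 617, 79 and 527 and 12.9, 28.0 and 9.14 in SF/SCL cows 856, 97 and 489215. The groups overlapped, and the log2 ratio was 0.81 higher in SF/SCL (exact permutation p = 0.2, two-sided, adjusted over the 3 ratios 0.3). In cow 489215 this ratio was inside the range of the other cows although both receptors were low.

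PGR over ESR1 was 0.0935, 0.0867 and 0.0930 in LF/LCL cows 617, 79 and 527, a very narrow range. It was 0.0508 and 0.0674 in SF/SCL cows 856 and 97 and 0.628 in cow 489215. The SF/SCL cows again lay on both sides of the LF/LCL cows. The mean log2 ratio was 0.50 higher in SF/SCL with all cows (exact permutation p = 1, adjusted 1). Without cow 489215 the difference was -0.64, a value with no test.

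PGRMC1 over PGRMC2 was 2.60, 2.16 and 1.73 in LF/LCL cows 617, 79 and 527 and 7.02, 5.45 and 2.83 in SF/SCL cows 856, 97 and 489215. All SF/SCL ratios were above all LF/LCL ratios, although cow 489215 was close to cow 617. The log2 ratio was 1.16 higher in SF/SCL, a 2.23-fold difference, with an exact permutation p of 0.1, the smallest that 3 cows against 3 allow, and 0.3 adjusted over the 3 ratios. Without cow 489215 the difference was 1.54.

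**Figure D3:**
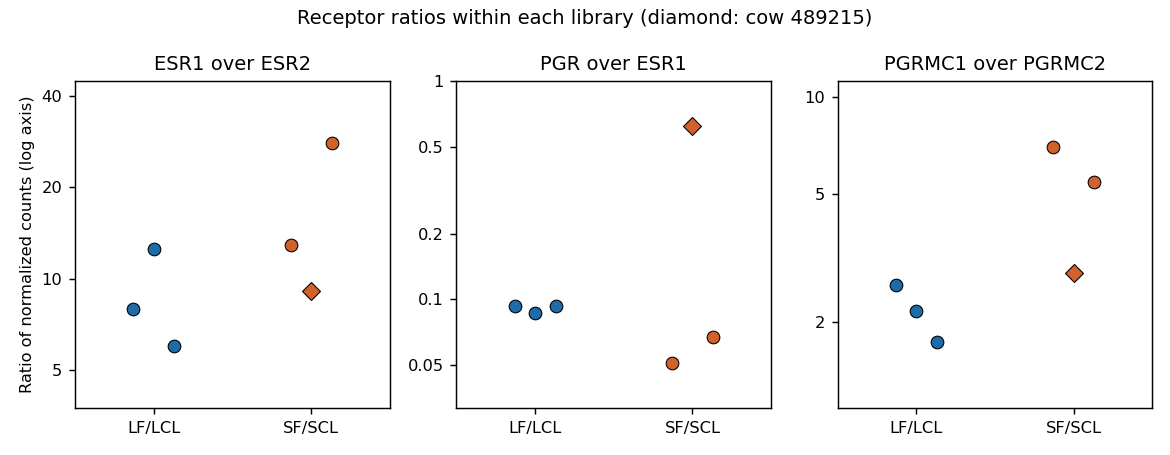
Ratios of normalized counts within each library (log axis, a separate scale for each ratio) for LF/LCL cows (blue) and SF/SCL cows (orange), with a diamond for cow 489215. PGRMC1 over PGRMC2 is higher in all SF/SCL cows, from 2.83 to 7.02 against 1.73 to 2.60, and PGR over ESR1 in cow 489215 (0.628) stands far above all others.

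Other membrane receptors and partners had values on both sides of 0. The list included the PAQR family of membrane progestin receptors, GPER1 (the G protein-coupled oestrogen receptor), the MAPR proteins NENF and CYB5D2, and the PGRMC1 partners SERBP1 and TMEM97. Of its 11 genes 10 were tested, 5 had positive and 5 negative values, and their median log2 fold change was -0.09. No gene passed the limma threshold. At an unadjusted p under 0.05, 1 was higher and 1 lower in SF/SCL, against 4.19% and 4.48% of the genes tested. The groups did not overlap for 3 genes, against 18.1%. Without cow 489215 the median turned to 0.13, and 0 of the 10 were called, against 18.2% of genes. PAQR5 had 46.1, 35.7 and 44.8 normalized counts in LF/LCL cows 617, 79 and 527 and 7.596, 18.4 and 14.6 in SF/SCL cows 856, 97 and 489215. The groups were apart for PAQR5 at a low level, with a log2 fold change of -1.64 ± 0.45 (limma adjusted p = 0.41, DESeq2 adjusted p = 0.0476). TMEM97, the sigma-2 receptor, had 1024 to 1460 normalized counts in LF/LCL and 1686 to 2652 in SF/SCL, a log2 fold change of 0.89 ± 0.25 (limma adjusted p = 0.42). GPER1 had 22.0 to 32.9 normalized counts in LF/LCL and 14.4 to 18.4 in SF/SCL (limma adjusted p = 0.652). SERBP1, the most abundant of the list by normalized count, ranged from 11384 to 13348 over the 6 cows, and its log2 fold change was 0.03 ± 0.17.

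The chaperones that hold steroid receptors ready for hormone had mostly positive values. All 11 genes of the list were tested, 10 had a log2 fold change above 0, and the median was 0.35. No gene passed the limma threshold. At an unadjusted p under 0.05, 2 were higher in SF/SCL, against 4.19% of the genes tested, and for 4 the groups did not overlap, against 18.1%. HSP90AA1, the inducible HSP90, had 39595 to 45021 normalized counts in LF/LCL and 63986 to 66655 in SF/SCL. HSPA8, the constitutive HSP70, had 45379 to 55457 and 71270 to 85020. Their limma adjusted p were 0.455 and 0.463, and their DESeq2 adjusted p 0.0048 and 0.0246. Both have closely related copies, and only uniquely mapped reads were counted. PTGES3, the HSP90 co-chaperone p23, had 10857 to 12900 normalized counts in LF/LCL and 14682 to 22267 in SF/SCL, and AHSA1, which activates the HSP90 ATPase, had 3526 to 4058 and 4438 to 6766. Cow 489215 had the highest value of the 6 libraries for 10 of the 11 chaperones, against 36.7% of the genes tested. Without it the median was 0.13 and 3 genes were called, all higher in SF/SCL, against 10.3% of genes.

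The coregulators, which carry out the transcriptional work of bound receptors, had mostly negative values. All 12 were tested, 3 had values above 0 and 9 below, the median log2 fold change was -0.35, and none had an unadjusted p under 0.05 or groups that did not overlap. For 11 of the 12 the lowest of the 6 libraries was cow 489215, against 35.7% of the genes tested. NCOA1, the first steroid receptor coactivator, had 1644 to 1834 normalized counts in LF/LCL, 2083 and 1789 in cows 856 and 97, and 418 in cow 489215. MED1, the Mediator subunit that contacts nuclear receptors, had 3069 to 3341 in LF/LCL, 3734 and 3567 in cows 856 and 97, and 831 in cow 489215. The corepressor NCOR1 had a smaller gap, with 5522 to 6063 in LF/LCL, 6921 and 7119 in cows 856 and 97, and 3664 in cow 489215. Only GATA2, a pioneer factor, was highest in cow 489215, at 3909 against 1231 and 1875 in the other SF/SCL cows and 2838 to 3103 in LF/LCL. With that cow left out the coregulator median was 0.26, and 4 genes were called higher and 1 (GATA2) lower in SF/SCL, against 10.3% and 7.92% of genes. NRIP1, a corepressor induced by oestrogen and named after its values were seen, was one of the 4, with a log2 fold change of 1.34 (adjusted p = 0.00527).

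Genes that respond to each hormone in other tissues are background to these receptors. Of the oestrogen response genes, 10 of 12 were tested, 4 had values above 0 and 6 below, and the median log2 fold change was -0.49. None had an unadjusted p under 0.05. The groups did not overlap for 1 gene, CXCL12, a chemokine, against 18.1% of the genes tested. It had 13619 to 19840 normalized counts in LF/LCL and 4945 to 12608 in SF/SCL (log2 fold change -0.87 ± 0.41, limma adjusted p = 0.635). PDZK1, a scaffold for membrane transporters, had 5976 to 6763 normalized counts in LF/LCL, 6243 in cow 489215, and 220 and 1209 in cows 856 and 97. TFF3, a mucosal peptide, had 6526 to 8352 in LF/LCL, 13632 in cow 489215, and 1162 and 1293 in cows 856 and 97. For PDZK1 cow 489215 thus lay among the LF/LCL cows, and for TFF3 above them. GREB1, an oestrogen-induced cofactor of ESR1 that was named after its values were seen, followed the order of ESR1, with 700 to 780 in LF/LCL, 2294 and 4089 in cows 856 and 97, and 443 in cow 489215. Leaving out cow 489215 gave a list median of -0.04, with 3 genes called higher and 2 lower in SF/SCL, against 10.3% and 7.92% of genes.

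Of the progesterone response genes, 10 of 12 were tested, 3 had values above 0 and 7 below, and the median log2 fold change was -0.61. STC1, a secreted glycoprotein, had 407 to 576 normalized counts in LF/LCL and 262 to 307 in SF/SCL (log2 fold change -0.67 ± 0.24, limma adjusted p = 0.503). It was the only gene of the list whose groups did not overlap, against 18.1% of the genes tested. At an unadjusted p under 0.05 in limma, 1 gene was higher and 1 lower in SF/SCL, against 4.19% and 4.48%. The mucin MUC1 had a log2 fold change of 0.89 ± 0.37 (limma adjusted p = 0.577), with 1639 to 2866 normalized counts in LF/LCL and 2782 to 6421 in SF/SCL. IHH, the hedgehog ligand that PGR induces in uterine epithelium, had 1225 to 2478 in LF/LCL, 3300 in cow 489215, and 102 and 403 in cows 856 and 97. HAND2, its stromal counterpart in the uterus, had 697 to 875 in LF/LCL, 947 in cow 489215, and 302 and 469 in cows 856 and 97. Both were therefore lower in cows 856 and 97 only. Leaving out cow 489215 gave a list median of -0.30, with 1 gene called higher and 3 lower in SF/SCL, against 10.3% and 7.92% of genes. IHH and HAND2 were among the lower ones (limma adjusted p of 0.0157 and 0.0239).

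The glucocorticoid list had 10 rows tested and a median log2 fold change of -0.18, 4 values above 0 and 6 below. The deposited table gives the symbol ANGPTL4 to 2 of these rows, and the study's other tables name one of them, ENSBTAG00000021811, as ANGPT4, so its place in the list is uncertain. Without that row the median was -0.06, with 4 values above 0 and 5 below. DUSP1, a phosphatase that glucocorticoids induce, had 3071 to 3770 normalized counts in LF/LCL and 4302 to 8184 in SF/SCL (log2 fold change 0.77 ± 0.26, limma adjusted p = 0.48). FKBP5, the co-chaperone most used as a marker of glucocorticoid action, ranged from 14964 to 31957 in SF/SCL around 20779 to 21990 in LF/LCL. TSC22D3, another direct target, had a log2 fold change of -0.48 ± 0.23 (limma adjusted p = 0.647). Without cow 489215, 0 genes of this list were called, against 18.2% of genes, and its median was -0.04, or 0.02 without the uncertain row. The mineralocorticoid list had 8 of 11 genes tested and a median of 0.31, 5 values above 0 and 3 below. NEDD4L, a ubiquitin ligase of the epithelial sodium channel, had 905 to 1019 normalized counts in LF/LCL and 1098 to 1828 in SF/SCL (0.69 ± 0.25, limma adjusted p = 0.496). Without cow 489215 the median was 0.39, with 3 genes called higher and 1 lower, against 10.3% and 7.92% of genes.

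**Figure D4:**
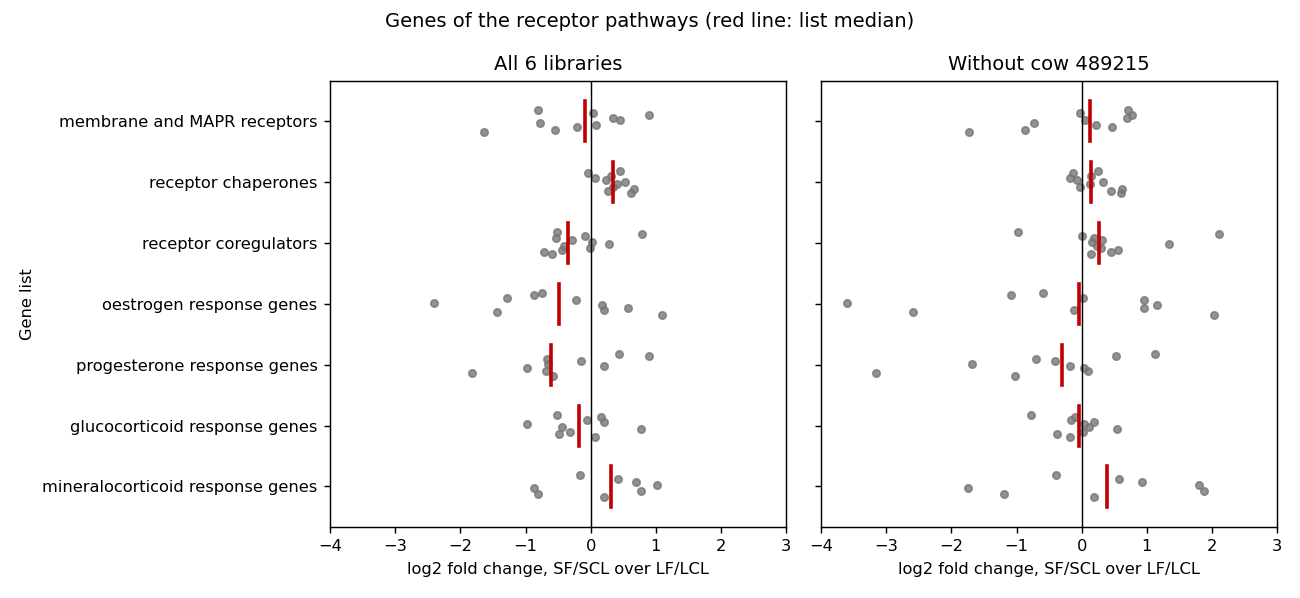
Log2 fold change of SF/SCL over LF/LCL for the tested genes of 7 receptor pathway lists (grey points, 1 per table row) with the list median (red line), with all 6 libraries on the left and without cow 489215 on the right. The median of the coregulators moves from -0.35 to 0.26 and that of the oestrogen response genes from -0.49 to -0.04.

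The libraries came from the whole thickness of the isthmus, so fewer cells of a type and less RNA per cell cannot be told apart. Marker levels are set beside the receptor values for this reason. Of 8 secretory and general epithelium markers tested, 7 had values above 0, 5 were higher at an unadjusted p under 0.05, against 4.19% of the genes tested, and the median log2 fold change was 0.61. The summed level of that list without OVGP1, the oviduct glycoprotein, was 28048 to 41127 normalized counts in LF/LCL and 46116 to 62140 in SF/SCL. OVGP1 itself, which the filter on variable values left untested, had 287 to 1950 normalized counts in LF/LCL, 730 in cow 489215, and 271794 and 325158 in cows 856 and 97. With OVGP1 the sums were 29998 to 41414 in LF/LCL, 62870 in cow 489215, and 317909 and 378483 in cows 856 and 97. Of the 8 tested markers of that list, 5 were highest in cow 489215, against 36.7% of the genes tested. Among these 5 was EPCAM, a membrane protein of epithelial cells (20313). As a part of the normalized total, 33913700, it was below cow 97, with 18854 of 25901100. PAX8 (469) was lowest in cow 489215. Of 9 ciliated epithelium markers tested, 8 had values above 0 and 4 were higher at an unadjusted p under 0.05, with sums of 36874.5 to 48694 in LF/LCL and 46801 to 66099 in SF/SCL. Smooth muscle markers were below 0 in 9 of 9 and fibroblast markers in 10 of 10. Their sums in LF/LCL were 808563 to 926324 and 233161 to 281478. In cows 856 and 97 the sums were 375799 and 436809 for smooth muscle and 130089 and 116281 for fibroblasts. In cow 489215 they were 1275160 and 306484, higher than in any other cow. Its normalized total was also the highest, 33913700, against 26900100 in cow 79 and 26206200 in cow 527. As a part of the total, its fibroblast sum was below those of cows 79 (281478) and 527 (262323). Its smooth muscle sum stayed the highest on that scale. Single markers differed. Highest in cow 489215 were 5 of 9 smooth muscle and 1 of 10 fibroblast markers (POSTN, 198258), against 36.7% of the genes tested. Lowest in it were 1 (SYNPO2) and 2 (PDGFRB and LUM), against 35.7%. MYH11 (116653) and MYLK (47882) were below every LF/LCL cow there. Endothelial sums were 14793 to 18988 in LF/LCL and 12143 to 18571 in SF/SCL, and leukocyte sums 4472 to 7001 and 4299 to 6806. Mesothelial sums were 2530 to 3471 and 3501 to 27157, with CALB2 at 0 in some libraries. Genes of this list went both ways, so the sum does not stand for all of them. MSLN (17590 and 18098), WT1 (8611 and 7984) and PKHD1L1 (513 and 410) were above every LF/LCL cow in cows 856 and 97. LRRN4 was lower in every SF/SCL cow, with 175 to 412 in LF/LCL and 3.798 to 16.3 in SF/SCL. BNC1 was also lower in every SF/SCL cow (log2 fold change -1.97). In the fit without cow 489215, in which ESR1 and PGRMC1 were called, 7 of 9 ciliated markers were called higher (median 1.10), as were 4 of 8 secretory and general epithelium markers (median 0.53), against 10.3% of genes. In that fit 7 of 9 smooth muscle markers (median -1.02), 7 of 10 fibroblast markers (median -0.89) and 3 of 9 endothelial markers (median -0.50) were called lower, against 7.92% of genes. The part of these markers in the receptor values was not tested.

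As a description, the genes most like each receptor over the 6 libraries were found by Pearson's r of log2(value + 1) among the genes tested. With 6 points, of which 1 is cow 489215, many genes reach a high r. For ESR1 they were P97BCNT2, DNAH11, a dynein heavy chain of motile cilia, and ZFHX3, all with an r of 0.999. Over the 5 libraries without cow 489215 their r was 0.995 to 0.996. DNAH11 had 2579 to 2642 normalized counts in LF/LCL, 4036 and 4551 in cows 856 and 97, and 787 in cow 489215, the same order of groups as ESR1. For NR3C2 they were NF1, the Ras regulator neurofibromin, MIER3 and RERE, with r of at least 0.998 for each. For ESR2 they were METTL4, MAN1B1 and ANKRD53, with r of 0.995, 0.993 and 0.992. For PGR they were CD247, the T cell receptor zeta chain, RABL5 and AGA, a lysosomal amidase, with r of 0.989, 0.989 and 0.980. CD247 was highest, as PGR was, in cow 97 (543 normalized counts). For PGRMC1 they were RNF111, a ubiquitin ligase, KIAA1598 and TDP2, a DNA repair phosphodiesterase, with r of 0.995, 0.994 and 0.994. KIAA1598 had 1262 to 1446 normalized counts in LF/LCL and 1989 to 3191 in SF/SCL, highest in cow 856 as PGRMC1 was. For PGRMC2 they were TCEA2, MRPL49, a protein of the mitochondrial ribosome, and DOM3Z, with r of 0.998, 0.996 and 0.994, and each was highest in cow 489215.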

How the data were processed

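Isthmus RNA of 6 Nelore cows was sequenced with 1 library per cow (3 LF/LCL, 3 SF/SCL), and groups and cow numbers were taken from the sample titles. Per the submitters' processing notes and the study's methods, reads were aligned to the masked bovine assembly UMD3.1 with TopHat2 2.0.8 and Bowtie2 2.1.0, and counted per gene with HTSeq 0.5.4p2. The deposited signal values are counts that the authors scaled by DESeq 1.12.1 size factors. Whether counting used the strand is not given in the sources used here. The values were whole multiples of 1 read in 100% of 147696 cases (tolerance 0.02 reads), so reads were recovered. Read totals were 23899117 to 34193164 per library, and counting intervals would cover counting error only.

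Tests covered the 15387 of 24616 genes whose mean over the libraries exceeded both 5 and the SD, with limma 3.58.1 in R 4.3.3 (trend and robust) on log2(value + 1), Benjamini-Hochberg threshold 0.05 over all genes tested, and without covariates, since no batch is named. The pseudocount understates changes of low genes. Alternatives were edgeR 4.0.16 and DESeq2 1.42.0 on recovered reads, limma-voom, other scalings, filters and pseudocounts, and leaving out each cow. Single values were compared by exact permutation over the 10 divisions of 6 cows into 3 and 3, which cannot go below 0.1. Fits were tested on simulated data. Ratios and lists were computed in Python 3.11.15.

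The members, the 7 pathway lists and the 8 marker lists were chosen with earlier results of these data known. In each list up to 4 genes with the smallest limma p and the 2 with the highest mean could be named, and for each member the 3 genes tested with the highest r. Exceptions are marked in the text. Some genes counted in the lists are not reported here by name. Listed symbols without a matching row, such as CDH1, IGF1 and PECAM1, were left out. The study names E-CADHERIN and IGF-I in processes enriched among genes higher in the LF/LCL isthmus. CDH1 and IGF1 may therefore stand under those names, and the epithelium and oestrogen lists lack them. In the erythrocyte list 1 gene was tested (AHSP, log2 fold change 0.22), and in the mesothelium list 1 (BNC1, -1.97). Without transcript lengths or a genome of the assembly, levels were not ordered between genes and no positions or sequences are given.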

Additional observations from a re-analysis of the deposited data

How the results depend on the processing

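With limma on all 6 libraries 0 genes were called (1333 at an unadjusted p under 0.05), and edgeR called 0 (1307), but DESeq2 called 409, of which 203 were higher in SF/SCL. Leaving out each cow gave 0 to 2827 genes, the last without cow 489215. The ESR1 difference turned positive in edgeR with TMM (0.53), upper quartile (0.50) and library size (0.61) scaling and in DESeq2 (0.55), and ran from -0.80 to 1.08 when each cow was left out. GR-A turned positive in the same 4 fits (0.25, 0.21, 0.32 and 0.27) and ran from -0.86 to 0.80. Without cow 489215 NR3C2 (-0.94 to 0.34 over the cows left out) and PGRMC2 (-0.059 to 0.23) changed sign, uncalled. PGRMC1 passed the threshold in DESeq2 (1.31) and without cow 489215, and ran from 1.11 to 1.48. ESR2 (-1.62 to -0.10) and PGR (0.17, without cow 97, to 0.47) kept their sign and stayed uncalled under all 16 alternatives. The log2 ratios ran from 0.36 (without cow 97) to 1.17 for ESR1 over ESR2, from -0.64 to 1.18 for PGR over ESR1 and from 0.88 to 1.54 for PGRMC1 over PGRMC2. The cause of these changes was not tested. No paired analysis was possible because the cow numbers differ between the groups. The order of the members' levels, with its alternatives, was not run, since no transcript lengths were at hand. Leaving out cows 489215, 856 or 97 leaves 2 SF/SCL cows. List values without cow 489215 or without the uncertain ANGPTL4 row, and r without that cow, were chosen after seeing the data.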
